A study of Mus musculus with 6 samples.

Results

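Genome annotation holds a class of genes called TEC, loci annotated on expressed-sequence evidence that still await experimental verification. The 350 TEC transcripts described here each lie wholly inside a protein-coding gene and on its strand, and each collected at least 300 counts over the 6 libraries of the study. They were chosen from 55335 rows of the count table, of which 3214 are TEC and 424 of these reached 300 counts. The chosen transcripts sit in 258 coding genes, called hosts below, and the question was how each transcript and its host differed between LPS and PBS. The total count chose the members, and the change between groups did not enter the rule. A total can however be reached through 1 group alone, which was so for part of the list: 31 members had fewer than 150 counts over the PBS libraries and 63 had fewer than 150 over the LPS libraries, so that counts over the list are descriptions.

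The libraries were total RNA of bone marrow-derived macrophages (BMDMs), grown for 6 d from marrow of C57BL/6 mice in medium conditioned by L929 cells. In the PBS group (n = 3) the cells received the vehicle, and in the LPS group (n = 3) lipopolysaccharide, an outer-membrane component of Gram-negative bacteria, for 1 h. No cells of the study's enhancer knockout enter these libraries, and the labels number the libraries of each group by batch 1, 2 and 3. Nothing in the sources used here says whether the libraries of a group came from separate mice, so the p-values measure the spread between these libraries, which may be technical.

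A polymerase that moves along a gene first makes a precursor RNA with all its introns, and splicing removes them while the RNA is still being made or soon after. Total RNA without a poly(A) selection keeps this precursor beside the mature mRNA, so reads fall in introns as well as exons. Macrophage genes that answer LPS are switched on within minutes, whereas the mature mRNA of a long-lived transcript accumulates over a longer time. A transcript annotated inside an intron on the host's strand shares its sequence with the host's precursor, and in counts of this kind reads from the precursor and reads from a separate transcript cannot be told apart.

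Each library held between 37787611 and 41516330 counts. The 8 macrophage markers checked summed to between 30329 and 31653 CPM (counts scaled to a common library size) in PBS and between 33315 and 33711 CPM in LPS. The 8 erythroid markers summed to at most 0.310 CPM, with 3 of them at 0. T cell markers summed to between 158 and 166 CPM in PBS and between 235 and 261 CPM in LPS. Neutrophil markers (44.0 to 47.0 CPM against 57.7 to 61.9), NK cell markers (1.69 to 1.93 against 2.70 to 2.97) and stromal markers (15.3 to 16.3 against 18.6 to 21.5, 1 called higher) also lay higher in LPS, and B cell markers lower (132 to 137 against 122 to 126). Only 3 of the 8 T cell, 4 of the 8 B cell and 2 of the 8 NK cell markers had enough counts to be tested, and none of these was called. Of the 8 dendritic cell markers 5 were called higher, and their sum ran from 188 to 211 CPM against 194 to 202. The part of these cells in the results was not tested. In the plain library totals the median gene fell, so the trimmed mean of M-values (TMM) set the scale, with factors of 1.15 on average in PBS and 0.869 in LPS.

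All 350 members are made of a single exon. They run from 400 to 7634 bases, with a median of 2553, and 333 lie in introns alone, while 17 touch an annotated exon on their strand. The longest such overlap, 1064 bases, was that of Gm38253 in Lrif1. Reaching 300 counts went with the strand and the place of the locus: 22.9% of the 1529 TEC rows inside a coding gene on its strand reached it, against 2.49% of the 361 inside a coding gene on the other strand and 4.66% of the 1202 outside coding genes. The median totals of these 3 classes were 29, 0 and 0 counts.

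The 3′ ends of the members were read in the GENCODE M21 transcript sequences (GRCm38), where all 3214 TEC entries were found. The hexamer AATAAA, the usual signal for cleavage and polyadenylation, was searched on the transcript's strand in the last 50 bases. It was present in 48 of 350 members, or 13.7%, in 14.6% of the same-strand TEC rows under 300 counts, in 28.1% of all remaining TEC rows and in 21.6% of all TEC rows. In the middle 50 bases it was present in 2.86% of the members. The ends below belong to the 7 transcripts of Camk2d in order along the gene, whose changes with LPS are given further on, then to an abundant Picalm transcript with the hexamer and to the members with the highest and lowest changes. Each is written 5′ to 3′, and capitals mark the hexamer where it is present.
Gm43011, chr3:126604412-126604461: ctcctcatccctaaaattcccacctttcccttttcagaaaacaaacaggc
Gm43010, chr3:126628708-126628757: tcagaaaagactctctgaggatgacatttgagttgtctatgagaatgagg
Gm43009, chr3:126647977-126648026: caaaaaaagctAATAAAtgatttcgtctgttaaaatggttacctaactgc
Gm43006, chr3:126659274-126659323: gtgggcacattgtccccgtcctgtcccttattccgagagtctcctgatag
Gm43005, chr3:126662977-126663026: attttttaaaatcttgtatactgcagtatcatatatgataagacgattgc
Gm42515, chr3:126741030-126741079: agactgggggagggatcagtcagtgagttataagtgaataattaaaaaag
Gm42514, chr3:126747915-126747964: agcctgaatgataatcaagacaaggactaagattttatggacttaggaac
Gm45222 in Picalm, chr7:90150205-90150254: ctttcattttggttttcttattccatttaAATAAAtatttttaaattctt
Gm37354 in Dst, chr1:33924789-33924838: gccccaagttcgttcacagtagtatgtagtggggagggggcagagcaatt
Gm43481 in Gtf2i, chr5:134267065-134267114, minus strand: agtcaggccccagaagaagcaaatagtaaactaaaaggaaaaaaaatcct
The other sequences listed are on the plus strand. Of the 7 Camk2d ends 1 holds the hexamer, in Gm43009, whose log2 change was 3.56, beside 3.18 and 3.05 in its neighbours without it. The variant ATTAAA, not capitalized here, was in the last 50 bases of 17 members (4.86%). The end of Gm42515, with a change of 1.48, holds this variant. A link between these signals and the change was not tested. Among the members called higher, 9.26% ended with the hexamer, against 11.4% of those called lower and 16.7% of those not called.

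A transcript or gene was called where its adjusted p (edgeR, quasi-likelihood, adjusted over 15687 genes by Benjamini-Hochberg) was below 0.05 and its log2 fold change was beyond 1 in size. Of the 350 members 108 were higher in LPS, in 67 hosts, and 44 were lower, in 38 hosts. These are 30.9% and 12.6% of the members, against 10.5% and 10.4% of all genes tested, and the counts rest in part on how members were chosen: among the 256 members with at least 150 counts in each group, 11 were called lower. That limit is on raw counts, and after TMM scaling the same count is a higher level in LPS than in PBS. It also takes out rows for being low in 1 group, so it is tied to the change itself. Of the 257 hosts tested, 34 were called higher (13.2%) and 3 lower. By the adjusted p alone, 177 hosts were higher and 37 lower, and 182 members were higher and 97 lower. A host that was not called may thus still have changed by less than the size required. The median log2 fold change was 0.34 for the members, with quartiles at -0.47 and 1.30, and 0.26 for the hosts, with quartiles at 0.04 and 0.56. Both medians turned negative with plain library totals, at -0.068 and -0.15, a scaling that put the median of all genes at -0.42 and called 81 members higher and 77 lower, and 19 hosts higher. In all 152 called members the 3 LPS libraries lay on one side of the 3 PBS libraries without overlap, and each of the same-numbered pairs moved the same way. The call selects such rows, so this adds no support to it. Over all 350 members the groups did not overlap in 285, and 294 moved the same way in the 3 pairs. The same counts were not taken over all genes, so they cannot be read as a trait of the members.

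Host and transcript were then set against each other. Of the 108 members called higher, 42 had a host called higher and 66 a host that was not called. Of the 44 called lower, 40 had a host that was not called, 3 had a host called lower, and the host of the remaining one had too few counts to be tested. No member was called in the direction opposite to a called host. Of the 151 called members with a tested host, 145 moved farther from 0 than the host did. The call required a size beyond 1 of the member and none of the host, so this count follows in part from the selection. Over all 349 pairs the median difference between member and host was 0.08. Over the 349 pairs, member and host changes had the same sign in 256, with a Pearson correlation of 0.66 and a Spearman correlation of 0.70 across pairs, which share their libraries and in part their hosts.

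**Figure D1:**
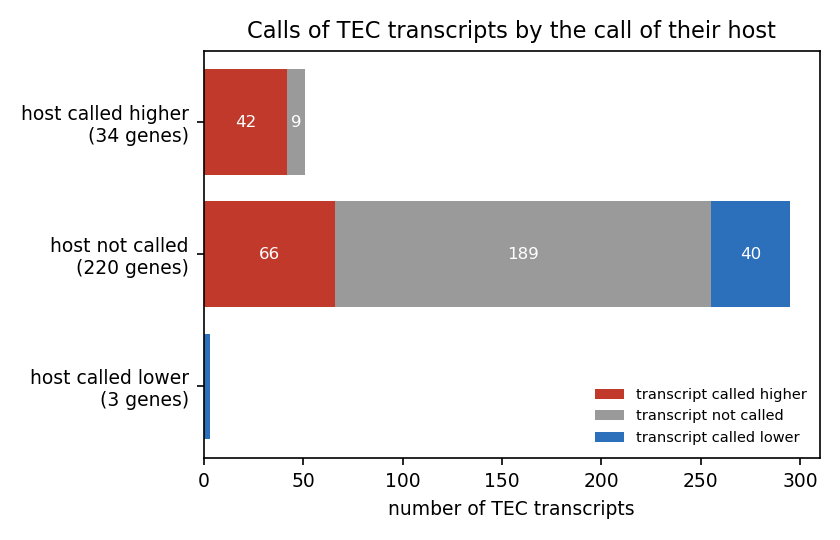
Number of TEC transcripts (horizontal axis) by the call of their host gene (rows) and by their own call (colours: red higher, grey not called, blue lower in LPS). Hosts that were not called hold 66 of the transcripts called higher and 40 of those called lower. They include hosts that passed the adjusted p but not the size required.

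The difference between a member's log2 change and its host's was tested in a model over both rows of counts, with the library as a block, adjusted over 1311 pairs of a non-coding gene nested in a coding gene. It passed with a difference above 1 in size in 109 of 349 pairs. In 62 pairs the member lay above its host (17.8%, against 11.7% of all nested pairs), and in 47 it lay below (13.5%, against 23.1% of all nested pairs). The 1311 pairs include the members and have no minimum of 300 counts, so the shares are not like for like. Of 353 TEC pairs under 300 counts, 23 lay above and 132 below. At 300 counts or more, 10 of 57 processed pseudogenes lay above and 11 below, and 6 and 7 of 55 sense-intronic genes. In the 62 the median log2 change was 2.84 for the member and 0.66 for the host. In the 47 the medians were -1.31 and 0.20. The 62 pairs belong to 40 hosts and the 47 to 39 hosts, so that transcripts of 1 gene count repeatedly. The split depends on the choice of members: with at least 150 counts in each group 41 pairs lay above and 18 below, and with a minimum total of 100 counts 75 lay above and 141 below, with a median difference of -0.14 in place of 0.08. Without a minimum size, 127 pairs lay above and 109 below.

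**Figure D2:**
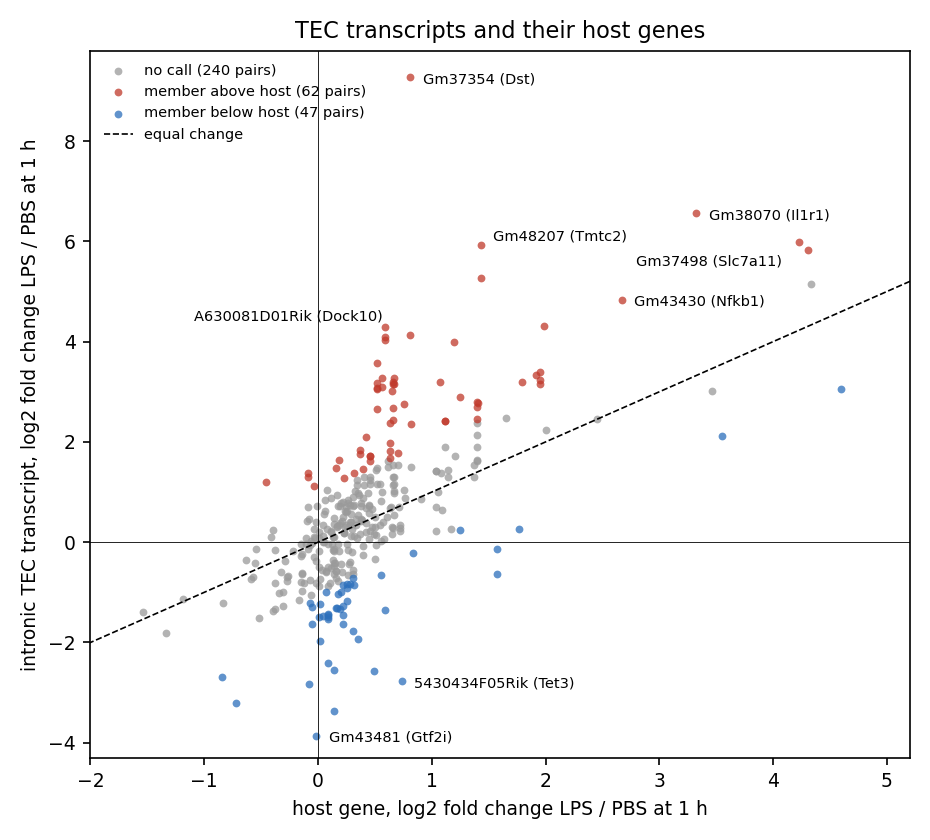
Log2 fold change LPS / PBS of each TEC transcript (vertical) against that of its host gene (horizontal), 349 pairs. Red points are the 62 pairs called with the member above its host, blue points the 47 with the member below, and the dashed line marks equal change. The median host change was 0.66 under the red points and 0.20 under the blue ones.

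The most strongly raised transcripts came from genes of several kinds. Gm37354 lies 14.2 kb into Dst, the gene of a large linker protein of the cytoskeleton (chr1:33922455-33924838, plus strand). It had 0, 1 and 0 counts in the PBS libraries and 191, 211 and 237 in the LPS libraries. From practically no counts it thus reached a level seen in every LPS library, a ratio of 886 with a 95% exact binomial interval of 158 to 35040 that covers counting error only. The fitted log2 change of 9.27 rests on the 1 count and became 10.95 without PBS replicate 2. Dst itself had 2215, 2102 and 2145 counts in PBS and 2701, 2746 and 2734 in LPS, or 46.5 CPM ± 0.0199 and 81.6 CPM ± 2.15 (SD, n = 3), a log2 change of 0.81, under the size required for a call.

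Gm38070 lies in the first part of Il1r1, which encodes the signalling receptor of interleukin-1, at chr1:40238020-40244499. It had 8, 1 and 1 counts in PBS and 236, 253 and 225 in LPS, a log2 change of 6.57 that became 8.14 without PBS replicate 1, the library with 8 counts. Il1r1 rose as well, from 0.719 CPM ± 0.209 to 7.24 CPM ± 0.181, and the member's change lay above the host's by 3.24 (SE 0.439). Gm43430 lies 37.0 kb into Nfkb1, the gene of the p105 precursor and p50 subunit of NF-κB. Its counts of 135, 149 and 149 became 2936, 2970 and 3043, a log2 change of 4.84 (SE 0.0578), while Nfkb1 rose by 2.67 on the log2 scale.

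Slc7a11, which encodes the cystine and glutamate exchanger xCT, Rab11fip1, an effector of recycling endosomes, and Noct, which encodes nocturnin, were among the most strongly raised hosts. Their members changed somewhat more than they did. Gm37498 changed by 5.98 against 4.23 for Slc7a11, and Gm45266 by 5.84 against 4.31 for Rab11fip1. Gm38357 in Noct changed by 5.14 against 4.34, a difference of 0.81 that did not pass the size required. Gm45266 overlaps an exon of a gene on the other strand by 129 bases. Gm48207 and Gm48204, both in the mannosyltransferase gene Tmtc2, changed by 5.93 and 5.28, whereas Tmtc2, at 2.40 CPM ± 0.270 in PBS and 6.47 CPM ± 0.393 in LPS, changed by 1.43.

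In Dock10, the gene of an activator of the GTPases Cdc42 and Rac, the 3 members rose to a like extent although the host stayed under the size required. A630081D01Rik, the one nearest to the start, had 125, 108 and 104 counts in PBS and 1566, 1482 and 1716 in LPS. Gm38062, at 27.9 kb, had 137, 111 and 142 against 1657, 1492 and 1658, and Gm37645, at 89.0 kb, had 26, 36 and 43 against 420, 396 and 434. Their log2 changes were 4.29, 4.09 and 4.04. Dock10 had 11384, 9941 and 10513 counts in PBS and 11490, 11086 and 12031 in LPS, a log2 change of 0.59 (SE 0.0356) after scaling.

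The members with the highest totals lay in genes whose mRNA also rose. Gm45223 and Gm45222 lie in Picalm, a clathrin assembly gene, and changed by 2.69 and 2.79 against 1.40 for the host. Gm37033 lies in Itpkb, the kinase that phosphorylates inositol trisphosphate, and went from 17.3 CPM ± 0.567 to 182 CPM ± 2.84. Its log2 change of 3.39 lay 1.44 above that of Itpkb. Gm37084 lies in Mapkapk2, the kinase downstream of p38 that stabilizes cytokine mRNAs, and changed by 2.78 against 1.41. Together the 350 members summed to 1219 CPM ± 55.2 in PBS and 2837 CPM ± 53.9 in LPS, so that the abundant members weigh most in the sum.

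**Figure D3:**
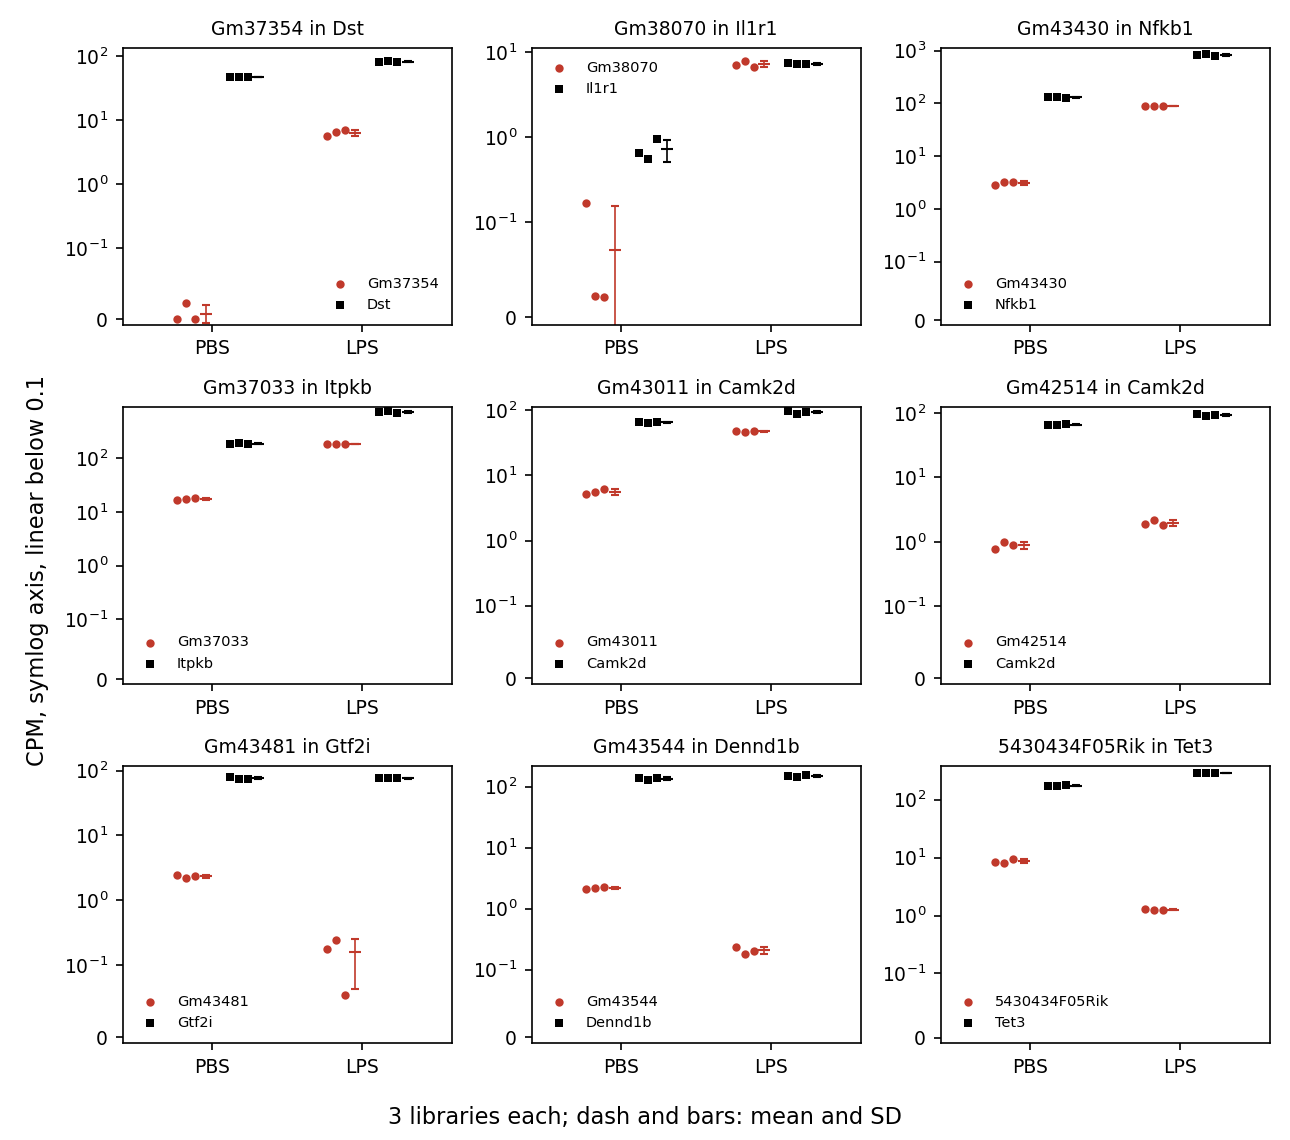
Level in each library in CPM (vertical, symlog axis that is linear below 0.1) of 9 TEC transcripts (red circles) and their hosts (black squares) in the 3 PBS and 3 LPS libraries, with mean and SD beside them. The transcripts separate the groups by more than the spread between libraries in every panel, also where host levels in PBS and LPS are near each other, as for Gm43481 in Gtf2i. All 9 transcripts shown were called, and the call selects such rows, so the separation adds no support to it.

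Of the 44 lowered transcripts, 40 lay in genes that were not called themselves. Gm43481, 44.0 kb into Gtf2i, the gene of the transcription factor TFII-I, had 117, 101 and 110 counts in PBS and 6, 8 and 2 in LPS. It fell by 3.86 on the log2 scale (SE 0.274), the lowest change among the members, with a count in LPS near the floor of detection. Gtf2i had 77.2 CPM ± 3.00 in PBS and 76.5 CPM ± 1.16 in LPS, a log2 change of -0.01 (adjusted p = 0.762, edgeR).

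5430434F05Rik lies in Tet3, which encodes an enzyme that oxidizes 5-methylcytosine. It had 408, 363 and 433 counts in PBS and 44, 41 and 42 in LPS, a log2 change of -2.77, while Tet3 went from 174 CPM ± 4.06 to 290 CPM ± 3.37, a log2 change of 0.73 with an adjusted p = 6.27e-13 (edgeR) but under the size required. The member and its host thus moved in opposite directions, and the difference of -3.50 (SE 0.143) was among the 6 lowest. Gm37510 in Mgat5, which encodes a branching enzyme of N-glycans, likewise had a change of -2.56 against 0.49 for its host. Gm43336 in Coro1c, an actin-binding coronin, changed by -2.83 against -0.08.

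Gm44951 in the zinc-finger gene Zfp710 and Gm36955 in Pgap1, an enzyme of GPI anchors, fell by 3.22 and fell by 2.69, in hosts with changes of -0.72 and -0.85. All 4 members of Fli1, an ETS-family transcription factor of blood cells, were called lower. Gm37082 had 314, 300 and 314 counts in PBS and 81, 91 and 76 in LPS, and the 4 changes were between -1.53 and -1.43 along a stretch from 5.68 to 62.5 kb. Fli1 itself went from 108 CPM ± 2.35 to 115 CPM ± 1.81, a log2 change of 0.09.

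The 3 members with a host called lower changed as the host did. 9930024M15Rik changed by -1.40 and its host Sesn1, a stress-induced regulator of the kinase complex mTORC1, by -1.54. Gm44260 changed by -1.81 and Bid, a pro-apoptotic member of the BCL2 family, by -1.34. Gm37274 changed by -1.13 and Cpne1 by -1.19, but the Cpne1 row held only 0.368 CPM in PBS, less than its nested transcript with 2.75 CPM.

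In 6 pairs the host was called higher and the member lay below it. Arl5b, an Arf-like GTPase, rose by 4.59 and Gm38257 in it by 3.05, and Mxd1, an antagonist of MYC, rose by 3.55 and Gm44292 in it by 2.11. In these 2 genes both rose, the nested transcript less. The members of Cpeb2, which encodes a regulator of mRNA translation, were not called: Gm42551 had a change of -0.14 and 6030400A10Rik of -0.63, while Cpeb2 rose by 1.58. The same held for Gm19327 in Elmsan1, with 0.26 against 1.77, and for Gm42481 in Pcdh7, with 0.24 against 1.25.

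Hosts with several members show how the change ran along a gene. Of the 258 hosts, 201 hold 1 member, 37 hold 2 and 20 hold 3 or more. In 52 of the 57 hosts with several, all members had changes of the same sign, and the median range of the changes within a host was 0.42 on the log2 scale. Camk2d, a calcium and calmodulin dependent kinase of chr3:126596302-126846326, holds the most with 7, all called higher. Gm43011, at 3.73 kb from the annotated start, had 245, 249 and 287 counts in PBS and 1617, 1507 and 1640 in LPS. At the far end Gm42514, at 149.8 kb, had 37, 45 and 41 counts in PBS and 63, 72 and 63 in LPS. From start to end the 7 log2 changes were 3.08, 3.18, 3.56, 3.05, 2.65, 1.48 and 1.15. The 5 transcripts within 66.1 kb thus rose by 2.65 or more, and the last pair, at 141.2 and 149.8 kb, by 1.48 and 1.15. The host's own change was 0.51, with 65.3 CPM ± 0.963 in PBS and 93.2 CPM ± 4.20 in LPS.

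A test of the member farthest from the start against the nearest one was added after these values were seen, in the same kind of model and adjusted over 464 pairs of TEC rows that share a host. In 8 of 57 hosts the farthest member lay lower by more than 1 and in 2 it lay higher, and 47 were not called. Over all 464 pairs, 10.1% were called lower and 8.84% higher, so that the 10 called of 57 are a share near that of all such pairs. In 5 of the 10 called hosts, Dst, Akap13, Camk2d, Atp8a1 and Dennd1b, the nearest or the farthest member had fewer than 150 counts in 1 of the groups and so reached its total mostly through the other. The 8 hosts were Dst, Pcdh7, Akap13, Camk2d, Notch2, Cers6, Ankrd44 and Elmo1. The calls of Ankrd44 and Elmo1 rested on single libraries: the difference was -0.97 for Ankrd44 without LPS replicate 2, and for Elmo1 -0.83 without PBS replicate 1 and -0.99 without LPS replicate 3. In all 8 the nearest member was called higher in LPS. In the other two, Dennd1b and Atp8a1, the nearest member was called lower and the farthest had a change near 0. All 10 were among the 30 hosts whose members span 50 kb or more, a limit set after the values were seen. Of the 27 hosts with a shorter span 0 were called by edgeR and 0 by limma, 3 passed the adjusted p alone and 7 an unadjusted p below 0.05.

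In Dst the near transcript Gm37354 stood at 9.27 and Gm38157, at 123.9 kb, at 4.13, with counts of 11, 14 and 15 in PBS and 159, 174 and 177 in LPS. The far-minus-near difference was -5.14 with an SE of 0.744, wide because the near transcript had 1 count in PBS. In Akap13, which encodes an anchoring protein of protein kinase A, the 3 members had changes of 3.27 at 26.5 kb, 3.10 at 29.3 kb and 1.00 at 252.4 kb. The 6 members of Cers6, a ceramide synthase, had changes of 3.15, 3.20, 2.43, 2.68, 1.30 and 1.54 in order, and the first and last differed by -1.61 (SE 0.111). In Akap13 and Cers6 the first pair of transcripts differed little, and the transcripts beyond 150 kb had the lowest changes.

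Pcdh7, a protocadherin, had the next largest difference after Dst. Gm42635, at 6.43 kb, had 136, 145 and 160 counts in PBS and 824, 674 and 860 in LPS, while Gm42481, at 60.9 kb, had 60, 58 and 77 against 53, 36 and 77, so that its groups overlapped. In Notch2, the receptor gene, Gm42819 at 17.2 kb changed by 1.45 and Gm42820 at 108.1 kb by -0.25, the latter with 541 of its bases in an annotated exon. Elmo1, the partner of Dock proteins in Rac activation, had changes of 1.30 at 181.3 kb and 0.22 at 414.2 kb.

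Dennd1b, a guanine nucleotide exchange factor for Rab35, gave the reverse picture. Gm37470 at 66.8 kb and Gm43544 at 106.8 kb fell by 2.54 and fell by 3.37. Gm37718 at 191.7 kb had 64, 89 and 70 counts in PBS and 58, 56 and 58 in LPS, a change of 0.09. Atp8a1, a phospholipid flippase, had 139, 134 and 135 counts in PBS and 34, 37 and 33 in LPS for D630030B08Rik at 10.6 kb. For Gm42735 at 212.1 kb it had 52, 51 and 65 against 47, 52 and 41. Neither Dennd1b (0.14) nor Atp8a1 (0.01) was called.

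Other long hosts did not show a difference past the rule. By the adjusted p alone, the far member was lower in 10 and higher in 6 of the 30 hosts whose members span 50 kb or more. Those higher but under the size required were Ttc7b by 0.84, Ncoa2 by 0.79, 2010111I01Rik by 0.68 and Mef2a by 0.52. The members of Picalm stood at 2.69, 2.79, 2.45 and 2.37 over 68.8 kb, and the last lay 0.32 below the first, a difference that passed the adjusted p but not the size, and those of Dock10 differed by -0.25 over 79.5 kb. Maml2, a coactivator of Notch, had 1.84 and 1.75 over 123.1 kb. In Med13l, a subunit of the Mediator kinase module, the 5 members lay between 0.55 and 1.30. The far-minus-near difference of Med13l was -0.61 and passed the adjusted p but not the size. In Prkcb, protein kinase C beta, the 5 members lay between -0.47 and 0.48. Across hosts, the median change was 0.23 for the 78 members within 10 kb of the start, 0.20 from 10 to 25 kb, 0.37 from 25 to 50 kb, 0.34 from 50 to 100 kb and 0.60 for the 67 members beyond 100 kb. The median changes of their hosts were 0.19, 0.24, 0.37, 0.35 and 0.38, and no trend was tested.

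**Figure D4:**
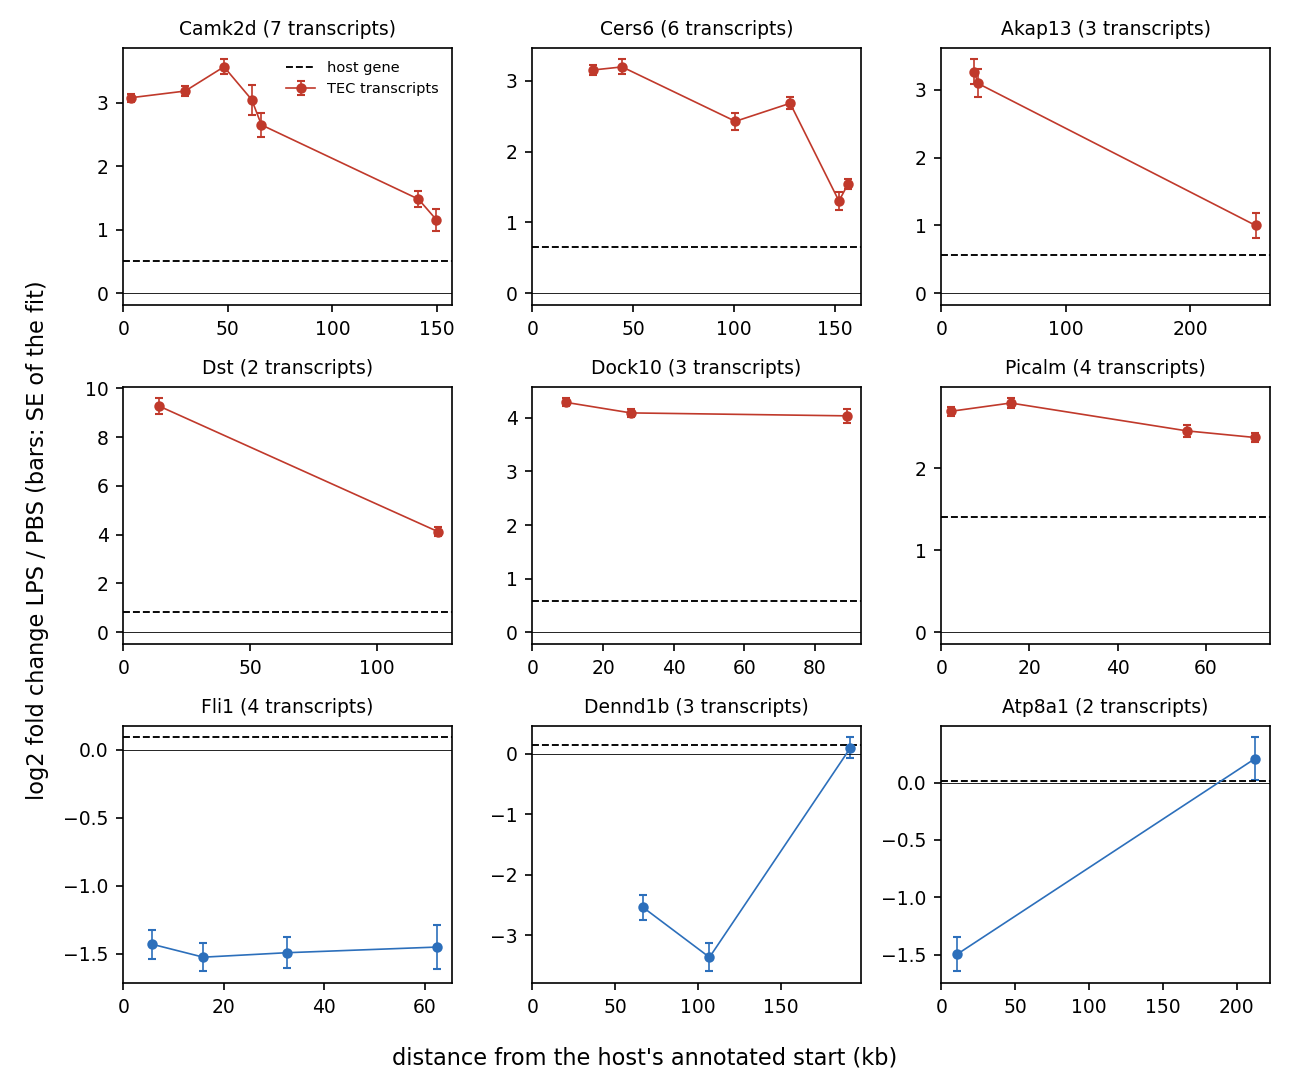
Log2 fold change LPS / PBS of the TEC transcripts (points, with the SE of the fit) against their distance in kb from the annotated start of the host, for 9 hosts; the dashed line is the host gene's own change, and the vertical scales differ. Camk2d, Cers6, Akap13 and Dst fall with distance, the first and last transcripts of Dock10, Picalm and Fli1 differ by less than 1, and in Dennd1b and Atp8a1 the transcript farthest from the start is near 0 and the others are lowered.

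Levels per kb of annotated exon place the members below their hosts. In PBS the median member stood at 11.5% of its host's CPM per kb, with 80% of the pairs between 3.94% and 33.3%, and in LPS at 12.4%. In PBS 3 members stood above the host per kb and in LPS 15 did. Gm48207 went from 24.6% of Tmtc2 per kb in PBS to 574% in LPS, Gm43010 from 46.4% of Camk2d to 296%, and Gm43481 from 8.48% of Gtf2i to 0.584%. The PBS value of Gm48207 rests on 8, 4 and 4 counts, and the LPS value of Gm43481 on counts near the floor of detection. These ratios are levels, not changes, and rest on the annotated length of the host's exons.

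The hosts fall into few of the pathways listed. Of 156 early LPS response genes 4 were hosts, with 6 members. Of the 6 members 3 were called higher (50%, against 30.9% over all members). Of the 4 hosts 3 were called higher, against 13.2% of all hosts tested. Besides Nfkb1 and Mapkapk2 the hosts of this list were Irak2 and Rc3h1. Irak2 is a kinase of the Toll-like receptor pathway, and its member Gm43912 changed by 2.24 against 2.00. Rc3h1 is the mRNA-decay factor Roquin-1, and its 3 members had changes from 0.22 to 0.33. Of 151 transcription factors, cofactors and chromatin enzymes 21 were hosts, with 38 members. Of these members 9 were called higher and 5 lower (23.7% and 13.2%, near the 30.9% and 12.6% over all members). Of the 21 hosts 2 were called higher and 0 lower, beside 34 higher and 3 lower among all 257 hosts tested. The macrophage list of 59 genes held 1 host, Ptprc, which encodes CD45, and its member A130071D04Rik changed by 0.78 without a call. The median member change was 1.29, 0.30 and 0.78 in these lists, beside 0.34 over all members.

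Other nested genes give the frame for these values. The 55 tested sense-intronic genes with at least 300 counts, another annotation class inside introns, had a median difference from the host of -0.05 and a Spearman correlation with it of 0.43, against 0.08 and 0.70 for the members. The 57 processed pseudogenes of that total inside coding genes stood nearer to the members, at 0.05 and 0.61. The 353 tested TEC rows on the same strand with fewer than 300 counts had a median difference of -0.55 and a Spearman correlation of 0.55. Members just inside the limit were Gm43844 in St7 (300 counts, log2 change 2.46), Gm47826 in Zmynd11 (300, 1.01) and Gm38034 in Foxo1 (303, 1.24). Just outside were Gm42480 in Pcdh7 (298, 0.35), Gm43787 in Wdfy3 (297, -1.14) and Gm43747 in Fip1l1 (296, -0.08).

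On the strand opposite to the host, 9 TEC rows reached 300 counts. Of these, 2210406H18Rik in Mettl9 was called higher, with 1.25 against -0.06 for the host, and Gm38162 in Kansl1l was called lower, with -1.10 against a host that rose by 1.40. Kansl1l holds 4 members on its own strand, and all were called higher with changes from 1.61 to 2.13. The other 7 rows had changes between -0.51 and 0.47 and were not called. Gm38162 shares 1111 bases with exons annotated on the other strand, and whether the counting used the strand is not given in the sources used here.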

How the data were processed

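The authors sequenced total RNA of 3 PBS and 3 LPS libraries (TruSeq Stranded Total RNA Globin kit), aligned reads to GRCm38 with HISAT2 2.1.0 and counted them per gene with featureCounts 2.0.0. The deposited table holds raw counts. The annotation release, the strand setting and the handling of reads that fit several genes are not given in the sources used here, so that reads of overlapping genes may be missing or shared. Of 55335 rows, 55154 matched GENCODE M21 without the version number and 181 did not.

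Hosts were the protein-coding genes that contain a TEC row on the same strand, and in the 7 cases with several the shortest was kept. Genes were filtered with filterByExpr, scaled by TMM and tested with the quasi-likelihood test of edgeR 4.0.16 (R 4.3.3), without a batch term, following the pairwise comparison of the study's methods. CPM use the TMM-scaled totals. Pairs were tested by the interaction of feature and treatment with a library block. DESeq2 1.42.0 and limma 3.58.1 served as alternatives. On simulated counts 200 of 200 genes changed by a log2 fold of 2 were recovered among 15216, with 1 wrong call, and 100 of 100 changed pairs among 344, with 0 wrong. These changes lay well beyond the size of 1 required, and the unchanged pairs had no difference. The recovery therefore does not measure how calls near 1 or at few counts fare.

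The batch numbers in the labels pair the libraries. Within a number, the PBS and LPS libraries' departures from the group mean correlated by -0.02, 0.16 and 0.06. A limit of 3 counts corresponds to 0.0630 to 0.0919 CPM. An exact permutation test of 3 against 3 libraries cannot go below 0.1 and was not used. The members, the gene lists and the rules for named transcripts were chosen with earlier results of these data known. Transcripts were named by rule: the 8 highest and 8 lowest changes, the 6 highest and 6 lowest differences from the host, and the 4 highest totals. The rule also named all members of hosts with 3 or more, but not all of these are described. The hosts Ap3s1, Apbb2, Col4a3bp, Plxna2, Snd1 and Tcf12 are left out. Only the far-minus-near difference is given for 2010111I01Rik and Ncoa2, and Itpkb is shown by Gm37033 alone. Hosts named for differences along the gene and members called below a raised host were named after their values were seen. The result of 1 further gene list is not reported here.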

Additional observations from a re-analysis of the deposited data

How the results depend on the processing

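With plain library totals in place of TMM, the median log2 change fell to -0.068 for members and -0.15 for hosts (all genes -0.42), with 77 members and 7 hosts called lower and 19 hosts higher. Upper-quartile scaling gave medians of 0.19 and 0.11 (all genes -0.16), and DESeq2's size factors or test gave 0.28 for hosts and 0.0055 for all genes. The host median was 0.23 without a filter, 0.24 with at least 10 counts in every library and 0.28 without exon-touching members. A minimum of 100 counts gave 133 members and 5 hosts lower, medians of 0.093 and 0.19, 141 pairs below and a median difference of -0.14. A minimum of 1000 counts gave 53 members higher and 10 lower, 16 hosts higher and 0 lower (3 with all members), medians of 1.08 and 0.39, 37 pairs above and 10 below, and a median difference of 0.52. Requiring 150 counts in each group gave 11 members and 0 hosts lower, medians of 0.46 and 0.29, 41 pairs above and 18 below, and a median difference of 0.15. With 1 member per host, 67 members were called higher and 38 pairs above. Without a minimum difference 127 pairs lay above and 109 below.

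The replicate block gave 108 members higher and 44 lower, 62 pairs above and 48 below, and 8 and 2 hosts with lower and higher far members; row by row it altered the call of 0 of 350 members, 0 of 257 hosts, 1 of 349 pairs and 0 of the 57 hosts with several members. Leaving out each library in turn gave 105 to 111 members higher and 38 to 45 lower, 34 hosts higher throughout and 2 to 3 lower, medians of 0.30 to 0.40 for members and 0.24 to 0.27 for hosts, 61 to 64 pairs above and 45 to 53 below, a median difference of 0.05 to 0.12, and 7 to 8 and 2 to 3 hosts with lower and higher far members. Without PBS replicate 1, Ttc7b was called higher at its far member (1.07). All 272 recomputed changes of named members and 120 differences of named pairs kept direction and call, but Gm38070 moved from 6.57 to 8.14 without PBS replicate 1 and Gm37354 from 9.27 to 10.95 without PBS replicate 2. The filter of at least 10 counts in every library removed Gm37354, Gm38070, Gm37498, Gm48207, Gm45266, Gm48204, Gm43481 and Gm43544. They have no value under that setting, and pair differences were not run under it. The cause of the shifts with member limits was not tested beyond the choice of rows itself.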

Other observations

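Of the sense-intronic genes that share a host with a member, 11 had a tested value. Gm29322 in Peak1 and Gm16132 in Fancc were called higher, with log2 changes of 1.88 and 4.24. The nearest members, Gm36940 at 175.3 kb from Gm29322 and Gm47588 at 33.7 kb from Gm16132, had 1.14 and 3.19. Gm16132 had only 5, 6 and 5 counts in PBS. Gm29488 in Srgap2 and 4930596I21Rik in Dennd1b were called lower, with -1.45 and -1.79. Their nearest members were Gm37954 at 30.7 kb, with -0.35 and not called, and Gm37470 at 52.5 kb, with -2.54. In LPS 4930596I21Rik had only 4, 13 and 11 counts. The 7 others were not called. In Dennd1b the lowered 4930596I21Rik lies 14.2 kb from the start, nearer than any member of that gene.

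Gm33142 was called lower, with 132, 114 and 106 counts in PBS and 24, 32 and 26 in LPS. The only coding gene that contains it on its strand, Gm20388, had too few counts for a test.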
